A study of Mus musculus with 8 samples.

Results

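The tumour necrosis factor (TNF) superfamily comprises the TNF-related ligands and the receptors that bind them, and its messenger RNAs were followed here in mouse kidney. Members were taken by gene symbol, as every symbol beginning with Tnfsf or Tnfrsf and a digit together with Tnf, Fas, Fasl, Cd27, Cd40, Cd40lg, Cd70, Lta, Ltb and Ltbr. This gave 42 of the 34745 genes in the deposited table, made up of 17 ligands, 24 receptors and the antisense transcript Tnfsf13os. Of these, 37 had enough counts to be tested (14 ligands and 23 receptors), and Tnfsf4, Tnfsf18, Cd70, Tnfrsf17 and Tnfsf13os did not.

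Kidney RNA was sequenced at day 14 from wild-type mice in 3 groups: sham (n = 2), uIRI (n = 3) and uIRI with transplanted MSC, written uIRI+MSC below (n = 3). Kidney researchers use uIRI for a unilateral ischaemia-reperfusion injury, where the blood flow of a single kidney is stopped and restored, and MSC for stem or stromal cells of mesenchymal origin. Neither term is spelled out in the labels, which also give no strain, age or sex and no source, dose or timing of the cells. Nothing states that a group's libraries are from different animals, so p-values measure only the spread between these samples, which may be technical.

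As background, most ligands of the superfamily are membrane proteins that act as trimers, some after being shed, and each trimer gathers its receptors into a cluster. Receptors with a death domain can start apoptosis or necroptosis. Most others recruit TRAF adaptor proteins directly, and receptors of both kinds can switch on NF-kB and MAP kinases. A few members are decoys that bind ligand and pass on no signal. In the injured kidney, TNF from macrophages and tubule cells is a known driver of inflammation, and TWEAK (Tnfsf12) acting on its receptor Fn14 (Tnfrsf12a) is known for its effects on tubule cells.

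Depth ran from 11592986 to 24300112 counts per library. The share of mitochondrially encoded transcripts was 6.07 to 11.3% in uIRI+MSC, 3.49 to 4.84% in uIRI and 14.2% in sham. On the third principal component uIRI+MSC 3 lay at 62.3, away from all others at -15.1 to 8.32. Kidney markers bore out the labelled tissue: all 10 were detected, and their summed level, as counts in 1e6 of a library (CPM), ran from 40583 to 50381 in sham, from 4550 to 9343 in uIRI, and from 9596 to 14056 in the treated group. CPM values here are scaled by the trimmed mean of M-values (TMM). With library size alone as the scale, the median log2 change of all genes from sham to uIRI moved from 0.06 to 0.73, so changes below are read relative to the TMM scale.

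The genes of several members lie side by side. The best-known cluster is printed here because its 3 ligands were all called higher after injury, beside 28.3% of all genes. For 2 of the 3, a sham library lay below the cutoff of the low-count filter described further down. On GRCm38 Ltb occupies chr17:35194439-35196320 on the forward strand, Tnf chr17:35199381-35202007 and Lta chr17:35203165-35205351, both on the reverse strand. Ltb and Tnf are 3.06 kb apart, and Tnf and Lta 1.157 kb. RefSeq's promoter table (GRCm38.p6) matched 31 of the 42 members, with 35 start sites. The stretch before each start is given 5′ to 3′ on the strand of the gene, cut where the deposited gene span begins, as chr17:35194257-35194438 (forward) for Ltb, chr17:35202008-35202257 (reverse) for Tnf and chr17:35205352-35205601 (reverse) for Lta. Capitals mark the NF-kB consensus in Ltb and TATAAA in Tnf and Lta.
Ltb: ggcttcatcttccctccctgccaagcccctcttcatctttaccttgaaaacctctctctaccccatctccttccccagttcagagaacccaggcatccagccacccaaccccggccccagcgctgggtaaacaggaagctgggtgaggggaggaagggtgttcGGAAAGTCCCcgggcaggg
Tnf: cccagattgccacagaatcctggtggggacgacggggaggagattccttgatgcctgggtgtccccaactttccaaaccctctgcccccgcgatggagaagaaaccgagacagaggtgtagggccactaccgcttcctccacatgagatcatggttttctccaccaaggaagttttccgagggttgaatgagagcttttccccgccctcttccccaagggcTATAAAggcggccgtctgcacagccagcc
Lta: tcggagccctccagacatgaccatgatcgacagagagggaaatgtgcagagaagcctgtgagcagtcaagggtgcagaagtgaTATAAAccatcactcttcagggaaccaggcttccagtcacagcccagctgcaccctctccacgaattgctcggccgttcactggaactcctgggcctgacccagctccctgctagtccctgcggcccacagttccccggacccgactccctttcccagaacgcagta
The NF-kB match lay 87 to 78 bases before the RefSeq start of Ltb, and TATAAA lay 29 to 24 bases before that of Tnf and 167 to 162 bases before that of Lta. Both strands of the 250 bases before each start were searched. The NF-kB consensus was found in 3 of 35 member promoters (Ltb, Tnfrsf8 and Tnfrsf9) and in 3.90% of all 32851 promoters. TATAAA was found in 6 of 35 (Lta, Tnf, Tnfrsf17, Tnfrsf23, Tnfsf11 and Tnfsf18) and in 12.4% of all. TGANTCA, the letters bound by AP-1, was found in 6 of 35 (Fas, Tnfrsf8, Tnfrsf9, Tnfsf13, Tnfsf13b and Tnfsf14) and in 6.75% of all. These matches describe letters only, and none overlapped a match to another motif.

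For contrast, the windows of 2 receptors with opposite changes follow: Tnfrsf1b at chr4:145246871-145247120 (reverse strand), which rose, and Tnfrsf21 at chr17:43016305-43016554 (forward strand), which fell. Neither held any of the 3 motifs, so neither has capitals.
Tnfrsf1b: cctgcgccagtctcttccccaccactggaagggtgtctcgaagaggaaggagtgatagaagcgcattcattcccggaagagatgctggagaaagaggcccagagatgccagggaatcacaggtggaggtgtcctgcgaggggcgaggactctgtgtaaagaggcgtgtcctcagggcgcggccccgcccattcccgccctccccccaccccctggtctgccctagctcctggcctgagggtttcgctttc
Tnfrsf21: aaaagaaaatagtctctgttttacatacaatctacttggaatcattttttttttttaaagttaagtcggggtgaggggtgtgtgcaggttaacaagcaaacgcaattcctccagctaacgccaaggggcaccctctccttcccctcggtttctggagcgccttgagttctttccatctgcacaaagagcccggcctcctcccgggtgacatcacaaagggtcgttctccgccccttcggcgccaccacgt

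Setting uIRI against sham addresses what the injury had changed by day 14. Across the superfamily, 26 of 37 tested members were higher in uIRI, 1 was lower and 10 did not pass an adjusted p of 0.05 (edgeR quasi-likelihood test, Benjamini-Hochberg over all genes). Among all 16576 tested genes 54.6% were called, 28.3% higher and 26.3% lower. The median log2 change of the members was 2.06, or 2.05 with the 2 ligands at 0 counts in sham set to their lower bound, against 0.06 over all genes. All uIRI libraries lay above both sham libraries for 33 of 37 members and below for 1, where 77.1% of all genes did not overlap, 40.6% lying higher and 36.5% lower. Ligands were called higher in 11 of 14 (median 2.39, or 2.10 with those bounds), and receptors in 15 of 23 with 1 lower (median 1.64); the difference between these shares was not tested.

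Part of this count was favoured by the filter on low counts. In 17 of the 37 tested members (45.9%) at least 1 sham library lay below the filter's cutoff of 0.606 CPM. The same held for 14.7% of all tested genes. The filter applies that cutoff to CPM without TMM scaling. Members that entered only through the injured libraries were favoured to come out higher, but were not bound to be called. Tnfsf9, Tnfrsf8 and Tnfrsf13c, each with a sham library below the cutoff, did not pass in uIRI (edgeR adjusted p = 0.163, 0.137 and 0.109). On the TMM-scaled CPM printed here 12 members lay below that value. Of the 20 members with both sham libraries above the cutoff, 12 were called higher and 1 lower, with a median log2 change of 1.25. The same filter left 24.0% of all such genes higher and 30.7% lower, with a median of -0.08. A sham library lay below the cutoff for 2 of 3 inflammatory, 1 of 2 death and 4 of 5 co-stimulatory ligands, and for Tnfsf11. No sham library did for Tnfsf12, Tnfsf13 or Tnfsf13b. Among receptors this held for 6 of 7 co-stimulatory, 2 of 4 decoy and 1 of 2 BAFF or APRIL receptors, and for 0 of 5 in each other class. The shares of ligands and receptors called higher therefore rest unequally on such members. In whole tissue, fewer cells of a type and less RNA per cell cannot be told apart.

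**Figure D1:**
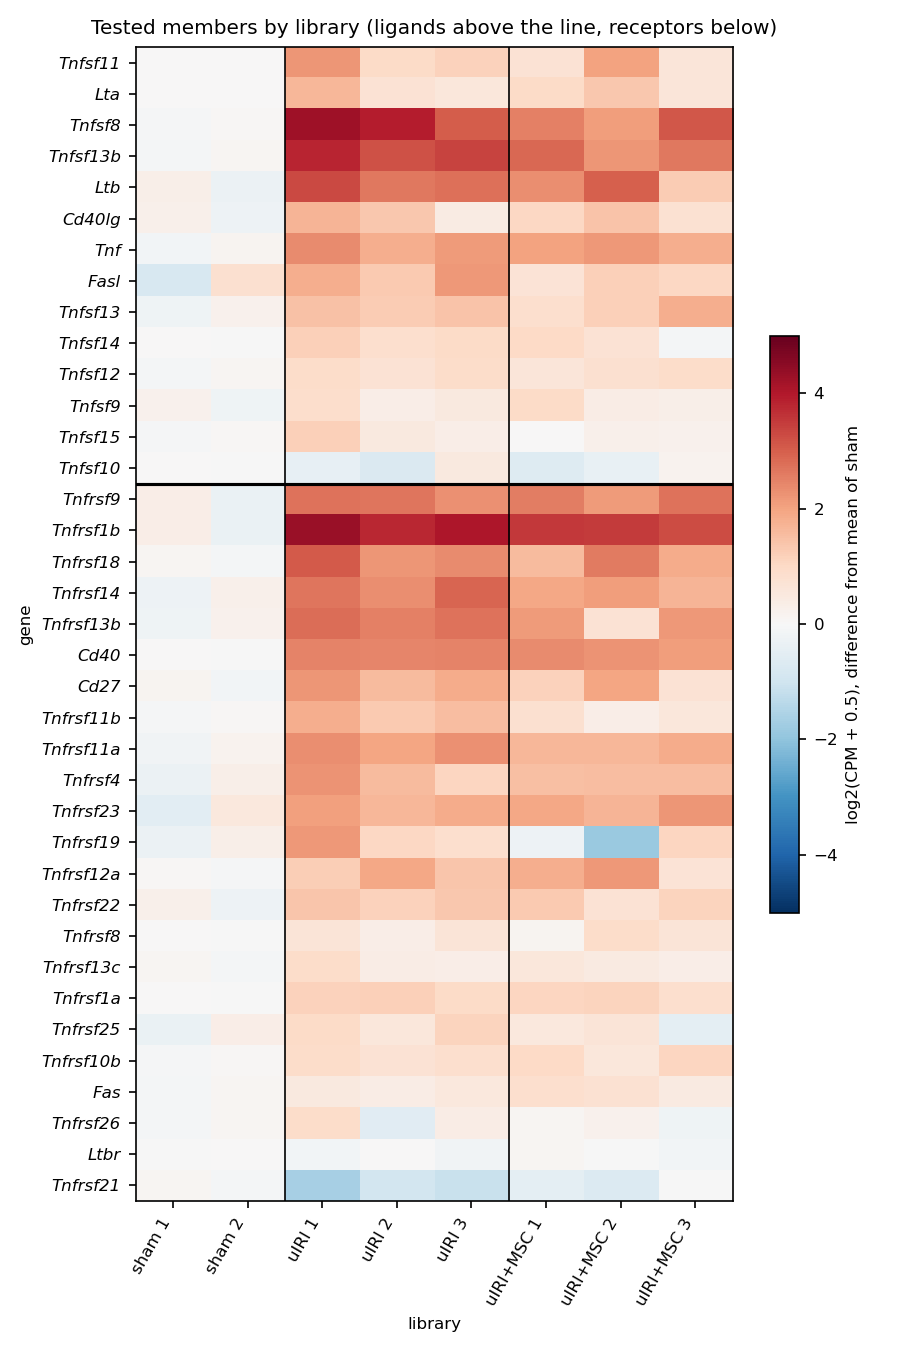
Level of the 37 tested members (rows, ligands above the thick line, each block ordered by the change in uIRI) in the 8 libraries (columns), as log2 of CPM plus 0.5 less the mean of the 2 sham libraries. Red is above sham and blue below: the uIRI columns are red in nearly every row, and Tnfrsf21 in the last row is blue in all 3 uIRI libraries.

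Markers of immune cells moved with the same comparison, where 28.3% of all genes were higher and 26.3% lower. Listed as the range over sham, over uIRI and over uIRI+MSC, the 10 macrophage markers summed to 301 to 347, 3131 to 4869 and 1836 to 2460 CPM, and 9 of 10 rose in uIRI. The 9 T cell markers summed to 13.7 to 15.3, 90.5 to 117 and 63.0 to 105 CPM, and all 9 rose. The 7 dendritic cell markers summed to 30.7 to 31.4, 182 to 275 and 135 to 167 CPM, and all 7 rose. Fibroblast markers rose in 7 of 7. The dendritic cell, neutrophil and fibroblast lists had fewer calls when a sham library was left out. The 6 injured tubule markers summed to 848 to 1196, 5319 to 7757 and 10696 to 15697 CPM, and all 6 rose. Neutrophil markers rose in all 4 tested of 6, NK cell markers in 3 of 5 (1 without sham 1, 5 in DESeq2), and 1 neutrophil marker was at 0 in sham. B cell markers summed to 4.56 to 7.91, 10.04 to 11.4 and 9.82 to 11.1 CPM, with 1 higher (Cd79b) and 1 lower (Cr2) of 8, or 4 higher and 1 lower with library size alone and 2 higher and 1 lower in DESeq2 or without sham 2. Endothelial markers had 0 higher and 1 lower of 7, or 5 higher and 0 lower with library size alone. The part of these shifts in the changes of the members was not tested.

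The 3 inflammatory ligands, which share the chromosome 17 cluster, were all higher in uIRI, against 28.3% of all genes. For 2 of the 3, Tnf and Lta, a sham library lay below the filter's cutoff. Values are given in library order within sham, uIRI and uIRI+MSC. Tnf, the founding member, stood at 0.777 and 1.01 CPM in sham, at 6.60, 4.40 and 5.65 in uIRI and at 5.15, 5.71 and 4.36 in uIRI+MSC. Every injured library of both groups lay above both sham libraries, and the 2 injured groups overlapped. The log2 change of Tnf in uIRI was 2.62 ± 0.33 (SE), a 6.15-fold rise (edgeR adjusted p = 0.000276). Ltb, which anchors lymphotoxin to the membrane, stood at 2.33 and 1.38 CPM in sham, at 22.4, 14.0 and 15.0 in uIRI and at 11.0, 18 and 5.12 in uIRI+MSC. Both injured groups lay clear of sham, with uIRI+MSC spread more widely than uIRI. Its log2 change in uIRI was 3.21 ± 0.57 (edgeR adjusted p = 0.00155). Lta, the secreted lymphotoxin subunit, had 0 counts in both sham libraries, 32, 9 and 5 in uIRI and 11, 11 and 3 in uIRI+MSC. Set against 3 counts over the sham group, Lta was at least 4.15-fold higher in uIRI (edgeR adjusted p = 0.0299), a call lost when either sham library was left out.

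**Figure D2:**
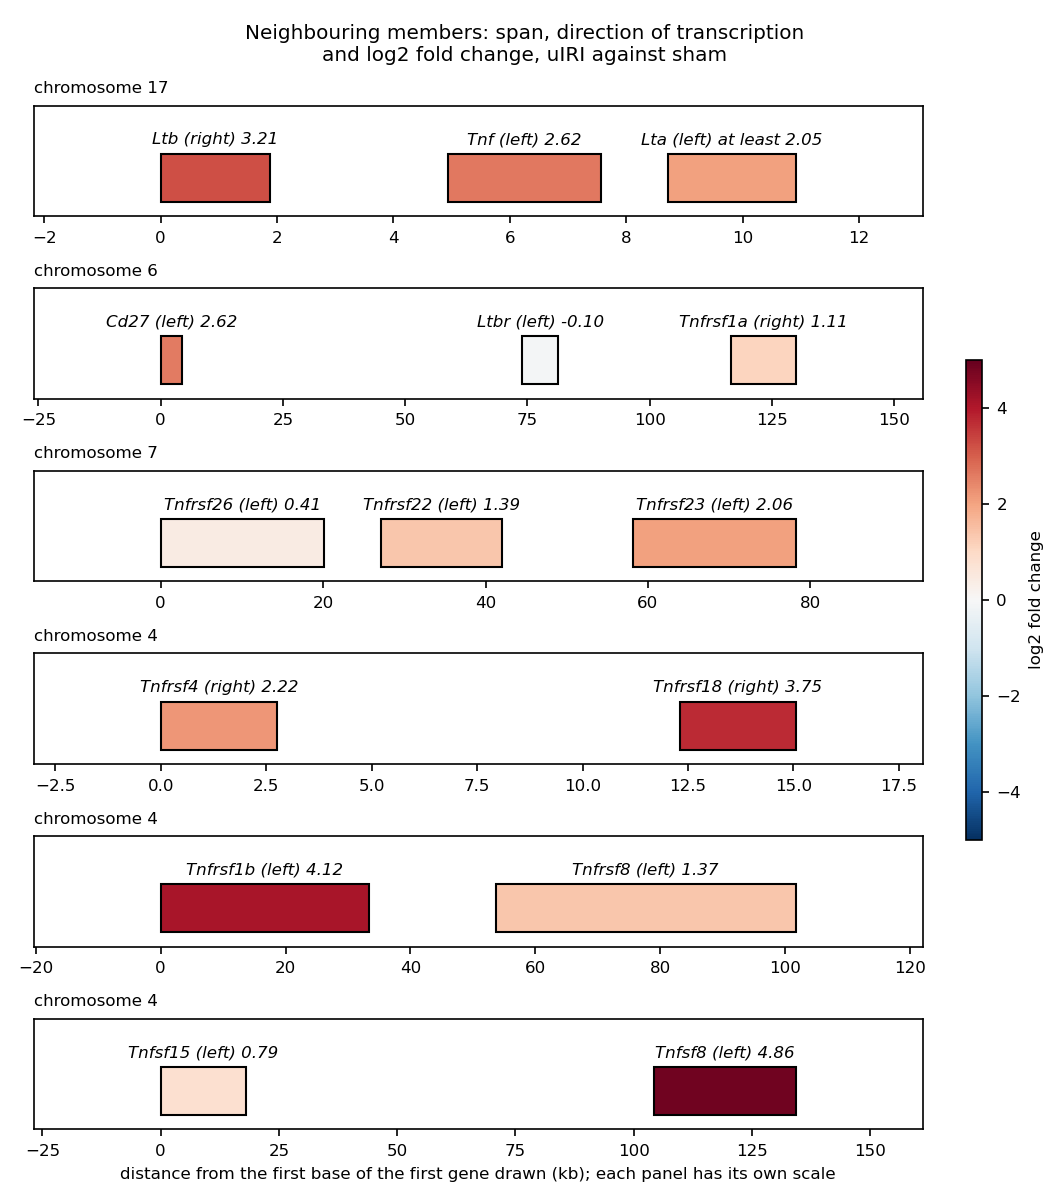
Members that lie next to each other on chromosomes 17, 6, 7 and 4, drawn to scale as boxes by distance in kb from the first gene of each panel and coloured by log2 change of uIRI against sham, with the direction of transcription in brackets. Ltb (3.21), Tnf (2.62) and Lta (at least 2.05) are all red, whereas Ltbr (-0.10) is near white between Cd27 (2.62) and Tnfrsf1a (1.11).

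Fasl and Tnfsf10 were the 2 ligands grouped as death ligands, and their changes were not compared by a test. Tnf, Lta and Tnfsf15 also have a receptor with a death domain and are given with the other ligands. Fasl, the ligand of Fas on cytotoxic lymphocytes, stood at 0.0971 and 1.29 CPM in sham, at 3.16, 2.09 and 4.19 in uIRI and at 1.17, 1.86 and 1.59 in uIRI+MSC. The sham libraries differed widely, 1 count against 14, but all 3 uIRI libraries lay above both. Its log2 change was 2.15 ± 0.71 (edgeR adjusted p = 0.0302); it was 4.95 without sham 2, and the call was lost without sham 1, uIRI 1 or uIRI 3, with the replicate block and with only these 2 groups in the fit. Tnfsf10, which encodes TRAIL, was the ligand with the highest FPKM in sham. It stood at 101 and 96.3 CPM in sham, at 73.8, 59.2 and 139.9 in uIRI and at 63.0, 76.3 and 113 in uIRI+MSC. The uIRI libraries fell on both sides of sham, and the log2 change of -0.12 had a 95% interval of -0.95 to 0.71 (edgeR adjusted p = 0.801).

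The TWEAK ligand and the B cell survival ligands passed the test. Tnfsf12, which encodes TWEAK, stood at 13.0 and 14.8 CPM in sham, at 26.5, 23.4 and 26.4 in uIRI and at 21.2, 24.4 and 26.5 in uIRI+MSC. Groups were tight, and the log2 change of 0.87 ± 0.16 (edgeR adjusted p = 0.00188) was the smallest among the ligands called. Tnfsf13, which encodes APRIL, stood at 0.874 and 1.38 CPM in sham, at 3.94, 3.34 and 3.81 in uIRI and at 2.39, 3.21 and 5.12 in uIRI+MSC. Its log2 change was 1.70 ± 0.41 (edgeR adjusted p = 0.00789), and it did not pass without sham 1 (adjusted p = 0.0657). These 2 genes lie 465 bases apart on chromosome 11 and overlap the read-through gene Tnfsfm13 and the antisense Tnfsf13os, so the split of reads between them is uncertain. Tnfsf13os itself had 2 to 11 counts per library and was not tested. Tnfsf13b, which encodes BAFF, stood at 1.07 and 1.29 CPM in sham, at 22.8, 14.9 and 16.8 in uIRI and at 11.8, 7.22 and 9.99 in uIRI+MSC. The 3 groups formed 3 separate bands with uIRI highest. Tnfsf13b was 15.3-fold higher in uIRI, a log2 change of 3.94 ± 0.35 (edgeR adjusted p = 6.49e-05), beside the 1 of 8 B cell markers that rose (4 with library size alone).

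Among ligands that co-stimulate lymphocytes, Tnfsf8, which encodes CD30 ligand, had the largest log2 change of the 5 tested. It stood at 0.388 and 0.460 CPM in sham, at 17, 13.5 and 6.97 in uIRI and at 4.81, 3.43 and 7.55 in uIRI+MSC. All injured libraries lay far above sham, and uIRI 3 lay within the range of uIRI+MSC. The log2 change in uIRI was 4.86 ± 0.61, or 29.0-fold (edgeR adjusted p = 0.000279). That fold rests on 4 and 5 counts in the sham libraries. Tnfsf14, which encodes LIGHT, stood at 0.777 and 0.736 CPM in sham, at 2.36, 1.72 and 1.93 in uIRI and at 2.01, 1.57 and 0.671 in uIRI+MSC. Its log2 change of 1.40 ± 0.50 passed narrowly (edgeR adjusted p = 0.0403) and was lost with limma-voom, without either sham library, without any single uIRI library and without uIRI+MSC 2. Cd40lg, a signal from helper T cells, had 75 counts over uIRI and 2 over sham, a scaled ratio of 10.1 with a counting interval of 2.71 to 85.3 (edgeR adjusted p = 0.0377). That call was lost under 6 alternatives, among them without sham 2, uIRI 1 or uIRI 2, and sham 2 alone had no counts. Tnfsf15 (TL1A) and Tnfsf9 (CD137 ligand) did not pass, at log2 changes of 0.79 and 0.80, although each had all uIRI libraries above sham. Tnfsf4, Tnfsf18 and Cd70 had 7, 11 and 4 counts over uIRI and 0 over sham, too few for a fold.

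Tnfsf11, which encodes RANKL, the ligand that drives osteoclast formation, had 0 counts in both sham libraries, 53, 13 and 13 in uIRI and 8, 21 and 3 in uIRI+MSC. It was at least 7.12-fold higher in uIRI (edgeR adjusted p = 0.0294), and the call was lost without sham 1, sham 2 or uIRI 1, which held most of its counts. Tnfrsf11a, which encodes its receptor RANK, stood at 4.86 and 6.35 CPM in sham, at 29.6, 23.5 and 28.8 in uIRI and at 18.7, 18.5 and 21.2 in uIRI+MSC. The 3 groups did not overlap. Tnfrsf11a rose by 2.28 ± 0.20 on the log2 scale (edgeR adjusted p = 6.02e-05). Tnfrsf11b, which encodes the secreted decoy osteoprotegerin, stood at 0.486 and 0.552 CPM in sham, at 3.13, 2.02 and 2.49 in uIRI and at 1.3, 0.786 and 1.01 in uIRI+MSC. It also formed 3 separate bands, with a log2 change of 2.28 ± 0.42 in uIRI (edgeR adjusted p = 0.002). So ligand, receptor and decoy of the RANK system were each called higher, the ligand at the lowest counts.

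**Figure D3:**
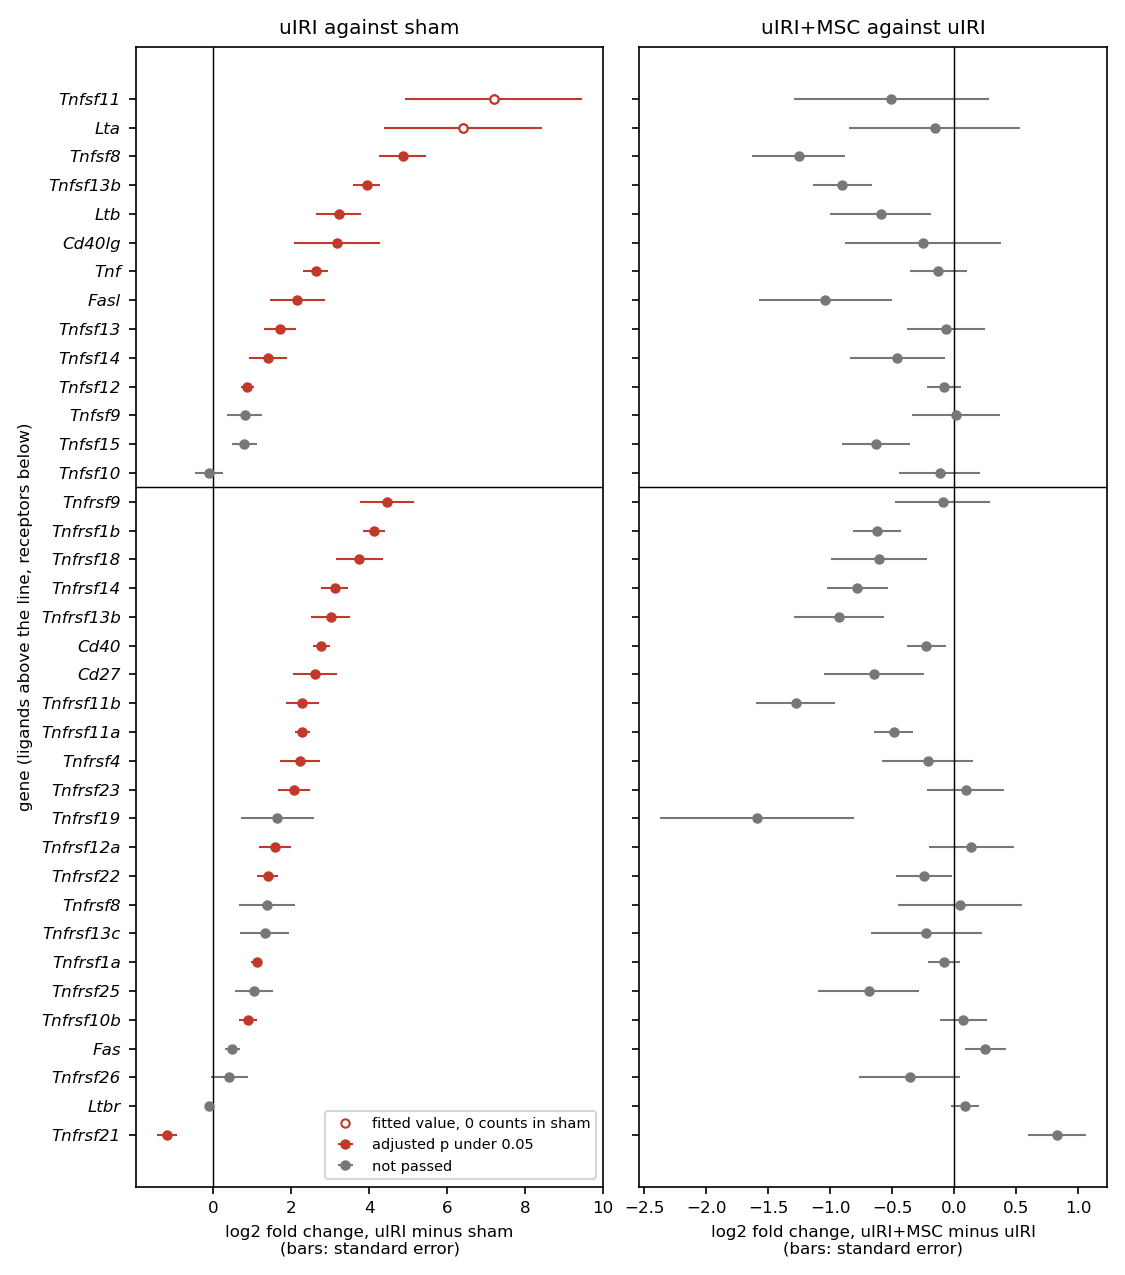
Log2 fold change (x axis, bars SE) of each tested member (rows, ligands above the line) for uIRI against sham on the left and uIRI+MSC against uIRI on the right; red points passed an adjusted p of 0.05 and open points are fitted values of genes with 0 counts in sham. On the left all red points but Tnfrsf21 (-1.19) lie to the right of 0, and on the right no point is red.

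The receptors with a death domain split. Tnfrsf1a, which encodes the widely expressed TNF receptor TNFR1, stood at 85.5 and 82.3 CPM in sham, at 189, 192 and 162 in uIRI and at 179, 183 and 151 in uIRI+MSC. Both injured groups lay clear of sham and overlapped each other, with a log2 change of 1.11 ± 0.15 in uIRI (edgeR adjusted p = 0.000384). Tnfrsf10b, the mouse TRAIL receptor, stood at 4.66 and 5.15 CPM in sham, at 9.69, 8.5 and 9.18 in uIRI and at 10.3, 7.57 and 10.9 in uIRI+MSC. Its log2 change was 0.89 ± 0.23 (edgeR adjusted p = 0.00946), lost without sham 1 (adjusted p = 0.0597). Tnfrsf21, which encodes death receptor DR6, was the only member called lower. It stood at 441 and 376 CPM in sham, at 129, 217 and 190.1 in uIRI and at 292, 255 and 404 in uIRI+MSC. The uIRI libraries lay below both other groups. Of the uIRI+MSC libraries only uIRI+MSC 3, set apart above on the third principal component, reached into the range of sham. Tnfrsf21 fell by 1.19 ± 0.26 on the log2 scale (edgeR adjusted p = 0.00434); with library size alone as the scale the change was -0.53 and did not pass (adjusted p = 0.0664). Of the kidney markers 8 of 10 also fell in uIRI (6 with library size alone), and the part of that in the level of Tnfrsf21 was not tested. Fas did not pass in uIRI (log2 change 0.48 ± 0.19, edgeR adjusted p = 0.0620), although its libraries stood at 7.87 and 9.29 CPM in sham and at 12.2, 11.2 and 12.5 in uIRI. It passed with library size alone, with only these 2 groups in the fit and without uIRI+MSC 3. Tnfrsf25, the receptor of TL1A, did not pass at 1.04.

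Of the receptors without a death domain, 5 were grouped apart from the decoys and from the co-stimulatory, BAFF and APRIL receptors below. Those below also recruit TRAF proteins and are not in this count. Of the 5, 3 were called higher, against 28.3% of all genes, and all 5 had both sham libraries above the filter's cutoff. Tnfrsf1b, which encodes TNFR2, the second TNF receptor, stood at 8.06 and 4.88 CPM in sham, at 134, 91.9 and 111 in uIRI and at 79.1, 75.3 and 64.0 in uIRI+MSC. The 3 groups formed 3 separate bands. Tnfrsf1b was 17.4-fold higher in uIRI, a log2 change of 4.12 ± 0.28 (edgeR adjusted p = 2.85e-05), beside 2.15-fold for Tnfrsf1a. Tnfrsf12a, which encodes Fn14, the receptor of TWEAK, stood at 19.6 and 18.4 CPM in sham, at 45.4, 74.2 and 51.0 in uIRI and at 68.4, 88.3 and 30.7 in uIRI+MSC. All injured libraries exceeded sham, with a wide spread in uIRI+MSC. Its log2 change was 1.58 ± 0.42 (edgeR adjusted p = 0.0114), lost without either sham library (adjusted p up to 0.0671). Ltbr, the lymphotoxin beta receptor, stood at 105 and 107 CPM in sham, at 95.9, 106 and 94.0 in uIRI and at 113, 103 and 97.5 in uIRI+MSC. The groups overlapped, the log2 change in uIRI was -0.10 with a 95% interval of -0.38 to 0.18, and it did not pass (edgeR adjusted p = 0.515). That direction depended on the scale, since with library size alone Ltbr was called higher at 0.56 (adjusted p = 0.00517). Tnfrsf19 (TROY) did not pass, with uIRI 1 at 11.2 CPM and the other uIRI libraries at 4.80 and 4.19.

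**Figure D4:**
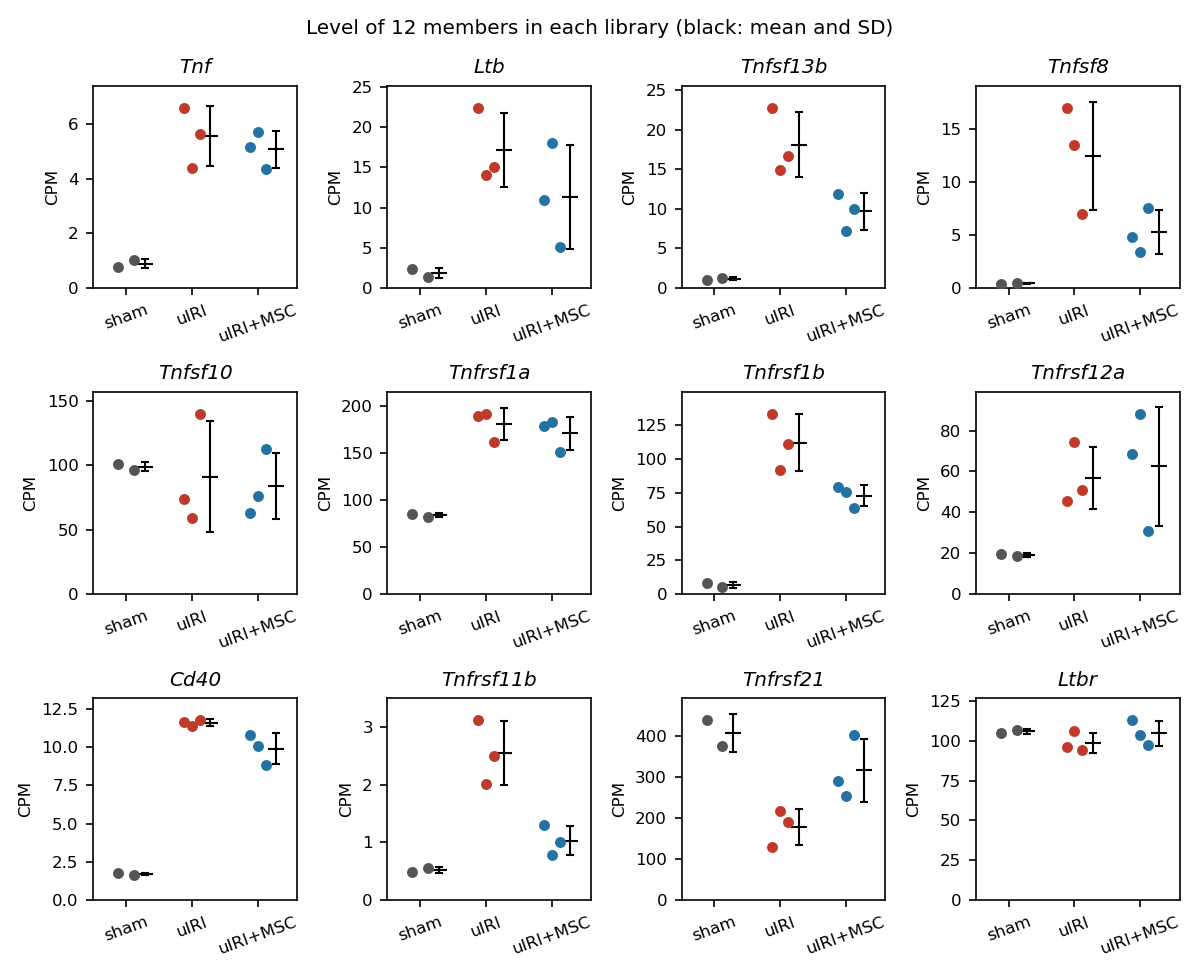
CPM (y axis, from 0) of 12 members in each library of sham, uIRI and uIRI+MSC, with points for libraries and black marks for mean and SD. Tnfsf13b, Tnfrsf1b and Tnfrsf11b separate into 3 bands with uIRI highest, Tnfrsf21 is lowest in uIRI, and Tnfsf10 and Ltbr overlap across groups.

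Co-stimulatory receptors were called higher in 6 of 7, against 28.3% of all genes, but 6 of the 7, all except Cd40, had a sham library below the filter's cutoff. Cd40, found on antigen-presenting cells, stood at 1.75 and 1.66 CPM in sham, at 11.6, 11.4 and 11.8 in uIRI and at 10.8, 10.1 and 8.81 in uIRI+MSC. Its uIRI libraries lay close together, with a log2 change of 2.77 ± 0.22 (edgeR adjusted p = 4.29e-05). Tnfrsf14 (HVEM), the receptor of LIGHT, stood at 0.777 and 1.29 CPM in sham, at 9.22, 7.0 and 10.7 in uIRI and at 5.27, 6.0 and 4.36 in uIRI+MSC. Its groups did not overlap, and the log2 change was 3.11 ± 0.35 (edgeR adjusted p = 0.000164). Tnfrsf18 (GITR), high on regulatory T cells, stood at 0.388 and 0.276 CPM in sham, at 6.5, 3.30 and 3.77 in uIRI and at 1.97, 4.5 and 2.52 in uIRI+MSC. Its log2 change in uIRI was 3.75 ± 0.61 (edgeR adjusted p = 0.000989), resting on 4 and 3 counts in sham. Tnfrsf4 (OX40), its neighbour 9.551 kb away on chromosome 4, stood at 0.486 and 1.01 CPM in sham, at 5.25, 3.19 and 2.07 in uIRI and at 2.93, 3.07 and 3.11 in uIRI+MSC. Both neighbours lay above sham in every injured library. The log2 change of Tnfrsf4 was 2.22 ± 0.51 (edgeR adjusted p = 0.00586), 2.86 without sham 2, and the call was lost without sham 1. Tnfrsf9 (CD137) had 258 counts over uIRI and 3 over sham, a scaled ratio of 23.3 with a counting interval of 7.87 to 114 (edgeR adjusted p = 0.000833), and sham 2 had no counts. Cd27 ranged from 2.68 to 4.48 CPM in uIRI against 0.460 and 0.680 in sham, a log2 change of 2.62 (edgeR adjusted p = 0.00442). Cd27 lies within Vamp1 and Tnfrsf18 within Gm16008, and Tnfrsf9 overlaps Camta1 over 28781 bases but not its whole span, all on the opposite strand, and without known strand in counting their reads cannot be told apart. Tnfrsf8 (CD30) did not pass at 1.37 ± 0.72, beside the rise of its ligand Tnfsf8.

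Of the 3 receptors for BAFF and APRIL, Tnfrsf13b (TACI) passed. It stood at 1.26 and 1.84 CPM in sham, at 13.7, 11.1 and 12.8 in uIRI and at 8.29, 2.86 and 8.56 in uIRI+MSC. Both injured groups lay above sham and apart from each other, with uIRI+MSC 2 nearest sham. Its log2 change in uIRI was 3.01 ± 0.50 (edgeR adjusted p = 0.00112). Tnfrsf13c, the B cell receptor of BAFF, stayed below 1 CPM in every library and did not pass at 1.31, and Tnfrsf17 (BCMA), found on plasma cells, had 11 counts over uIRI and 0 over sham.

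The decoy-type TRAIL receptors of mouse chromosome 7 lie within 1 cluster and are close relatives, so the assignment of reads among them is uncertain. Tnfrsf22 stood at 4.56 and 3.04 CPM in sham, at 10.7, 8.83 and 10.4 in uIRI and at 10.002, 6.43 and 8.73 in uIRI+MSC. Tnfrsf23 stood at 0.777 and 2.21 CPM in sham, at 7.27, 5.42 and 6.17 in uIRI and at 6.53, 5.57 and 8.06 in uIRI+MSC. For both genes all injured libraries lay above sham and the 2 injured groups overlapped. The log2 change in uIRI was 1.39 ± 0.28 for Tnfrsf22 (edgeR adjusted p = 0.00304) and 2.06 ± 0.41 for Tnfrsf23 (adjusted p = 0.00286), the latter 3.03 without sham 2. Their neighbour Tnfrsf26 did not pass at 0.41, with uIRI libraries on both sides of sham.

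Levels of different genes were compared per gene length, as the authors' FPKM. In sham, Tnfrsf21 led at 82.7 ± 4.54 FPKM (SD, n = 2), followed by Ltbr at 28.1 ± 1.99, Tnfrsf1a at 16.4 ± 0.494, Tnfrsf12a at 14.5 ± 0.185 and Tnfsf10 at 12.7 ± 0.287. Tnfsf12 and Fas came next at 6.42 ± 0.956 and 3.52 ± 0.615 FPKM, and all other members lay at or below 1.20. These 7 members had log2 changes of -1.19 to 1.58 in uIRI on the TMM scale, with a median of 0.48, whereas the other 30 tested ran from 0.41 up to 4.86 (Tnfsf8) with a median of 2.25, the 2 ligands at 0 in sham entering at their bounds. Sham levels enter both sides of that contrast, so it is a description. In uIRI the leading members were Tnfrsf12a at 68.6 ± 16.1 FPKM (n = 3), Tnfrsf21 at 57.2 ± 12.3 and Tnfrsf1a at 56.2 ± 6.04, whose ranges were not apart from each other, then Ltbr at 41.6 ± 2.17 and Tnfrsf1b at 33.6 ± 7.65. Tnfsf13b, at 23.0 ± 6.25 FPKM, became the most abundant ligand by mean, not apart from Tnfsf12 at 18.6 ± 1.9 and Tnfsf10 at 18.6 ± 8.63. FPKM is not TMM-scaled, so Ltbr and Tnfsf10 read higher in uIRI by FPKM and not by CPM.

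**Figure D5:**
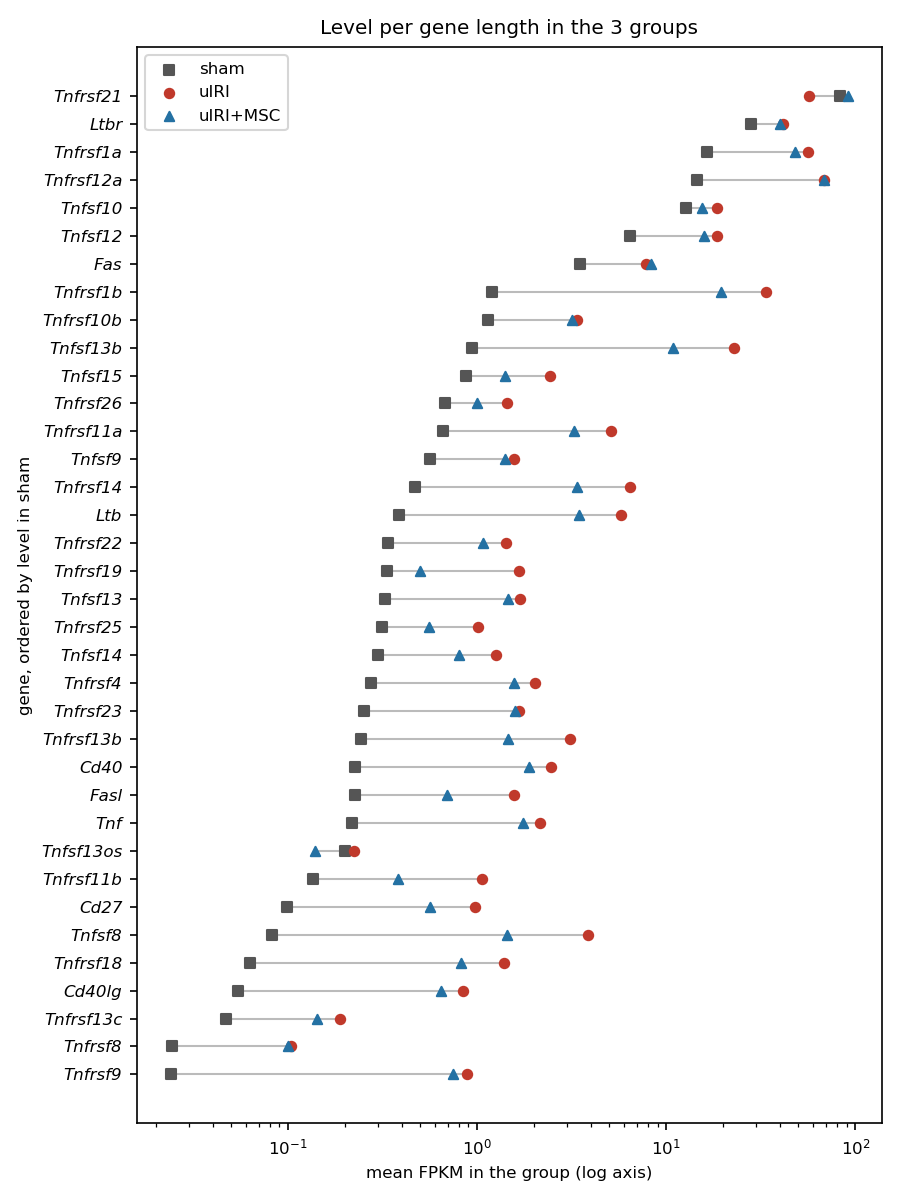
Mean FPKM (log x axis) of each member above 0 in sham, ordered by its level in sham, with squares for sham, circles for uIRI and triangles for uIRI+MSC. The 7 members at the top, from Tnfrsf21 (82.7) to Fas (3.52), stand apart from the rest in sham, while Tnfrsf1b and Tnfsf13b reach 33.6 and 23.0 in uIRI.

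The comparison of uIRI+MSC with uIRI asks whether the transplanted cells changed the injured kidney. No member passed the test, 0 of 37, and 0% of all 16576 genes were called by edgeR. At an unadjusted p under 0.05 there were 9 of 37 members (24.3%) and 3418 of all genes (20.6%), limma-voom called 0 of both, and DESeq2 called 7 members and 1364 genes. The members' median log2 change was -0.24 against -0.01 over all genes. Negative changes were found in 29 of 37 members (78.4%) and in 50.9% of all genes. This is a description, since the members share cells and libraries. The uIRI+MSC libraries lay wholly below uIRI for 9 members (Fasl, Tnfsf13b, Tnfsf15, Tnfrsf1b, Tnfrsf11a, Cd40, Tnfrsf14, Tnfrsf13b and Tnfrsf11b) and wholly above for Tnfrsf21. Over all genes 26.9% did not overlap, 12.7% lying wholly below and 14.1% wholly above. Leaving out uIRI+MSC 3 likewise gave 0 members.

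The sizes were moderate, and their intervals show what this design could resolve. Tnfrsf11b had a log2 change of -1.28 ± 0.32, with an unadjusted 95% interval of -2.0 to -0.56 and the smallest adjusted p of the members, 0.114 (edgeR). Tnfsf8 was at -1.25 ± 0.38, Tnfrsf13b at -0.93 ± 0.37, Tnfsf13b at -0.90 ± 0.24 (interval -1.44 to -0.36), Tnfrsf14 at -0.78 ± 0.25, Tnfrsf1b at -0.62 ± 0.20 and Tnfrsf11a at -0.49 ± 0.16. Tnfrsf21 was at 0.83 ± 0.24 (interval 0.29 to 1.36, edgeR adjusted p = 0.127), and at 0.63 without uIRI+MSC 3. The 7 members that DESeq2 called were Tnfrsf21, higher, and Tnfsf13b, Tnfsf8, Tnfrsf11b, Tnfrsf1b, Tnfrsf14 and Tnfrsf11a, lower. Tnf was at -0.13 with an interval of -0.66 to 0.41, Tnfrsf1a at -0.08 with -0.37 to 0.21, and Tnfrsf12a at 0.14 with -0.64 to 0.92. In the same comparison the summed macrophage and dendritic cell markers, given above, did not overlap between the groups, with uIRI+MSC lower. The summed kidney markers and the summed injured tubule markers did not overlap either, both with uIRI+MSC higher. By gene, 4 of 10 kidney, 2 of 6 injured tubule, 1 of 7 dendritic cell and 0 of 10 macrophage markers changed opposite to their sum. The summed T cell, neutrophil, NK cell, B cell, plasma cell, fibroblast and endothelial markers overlapped between the 2 groups. The part of these marker shifts in the members' values was not tested.

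Against sham, which both injured groups share as their control, uIRI+MSC had 22 of 37 members higher, 0 lower and a median log2 change of 1.64, beside 42.4% of all genes called, 22.1% higher and 20.3% lower, and a median of 0.03. The libraries lay wholly above sham for 28 members and wholly below for 0, where 64.2% of all genes did not overlap, 33.0% lying higher and 31.2% lower. The count called was 14 without sham 1. Tnf was at 2.49 ± 0.33 (edgeR adjusted p = 0.000687), Tnfrsf1b at 3.49 ± 0.27 (adjusted p = 8.44e-05), Tnfsf13b at 3.03 ± 0.35 (adjusted p = 0.000364) and Tnfrsf1a at 1.03 ± 0.15 (adjusted p = 0.00101). Fas passed here at 0.73 ± 0.19, with 15.9, 14.9 and 12 CPM in the uIRI+MSC libraries (edgeR adjusted p = 0.0158), a call lost without sham 1. Fasl, Tnfsf11, Tnfsf14, Cd40lg, Tnfrsf11b and Tnfrsf21, called in uIRI, did not pass here. Tnfrsf21 was at -0.37 ± 0.26 (edgeR adjusted p = 0.283). Passing in 1 comparison and not in the other does not show a difference, and the direct comparison of the 2 injured groups called none.

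Other genes of the pathway were read from lists by role, beside 28.3% of all genes higher, 26.3% lower and a median log2 change of 0.06. Of 7 related genes outside the naming rule, 6 were higher in uIRI and 0 lower. Their median log2 change was 2.04, or 1.63 without sham 1 and 2.42 without sham 2. The 6 include Edaradd, an adaptor and not a ligand or receptor, at 1.13 (edgeR adjusted p = 0.0310). They also include Tnfsfm13, which overlaps Tnfsf12 and Tnfsf13 on the same strand and is not separate from them. Relt, an orphan receptor of the family, was at a log2 change of 4.12 ± 0.40 (edgeR adjusted p = 9.28e-05), Ngfr, the p75 neurotrophin receptor, at 2.81 ± 0.33, the ectodysplasin receptor Eda2r at 2.75 ± 0.55 and the read-through Tnfsfm13 at 1.75 ± 0.28. Adaptors and NF-kB machinery, between receptor and nucleus, had 17 of 38 higher (44.7%) and 4 lower (10.5%), with a median of 0.35; the share called in either direction, 55.3%, was near the 54.6% of all genes. The 4 with the smallest p were Birc3, an inhibitor of apoptosis, at 2.56 ± 0.14, Nfkb1 at 1.74 ± 0.13, Tnip2 at 1.73 ± 0.14 and Rel at 2.52 ± 0.21, each higher. The lower genes were Chuk, which encodes the kinase IKK-alpha (-1.82 ± 0.16), Traf4 (-0.73 ± 0.15), Cflar, a brake on caspase-8 (-0.50 ± 0.13), and Fadd, the death domain adaptor (-0.48 ± 0.16). With library size alone as the scale this list had 28 higher and 1 lower (Chuk), and Cflar and Fadd turned to 0.16 and 0.19 without passing. Fadd did not pass without either sham library, nor Cflar without sham 2. Tradd, Ripk1 and Casp8, which act directly behind TNFR1 and Fas, did not pass, at 0.05, 0.25 and 0.23. With library size alone Ripk1 and Casp8 were both at 0.91 and passed (adjusted p = 0.000851 and 0.000355), and Tradd, at 0.71, did not.

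Of 25 genes known to respond to TNF or NF-kB, 24 were tested. In uIRI 19 were higher and 2 lower (28.3% and 26.3% of all genes). The tested genes had a median log2 change of 3.19 against 0.06 over all genes. How far the filter on low counts favoured this list was not worked out. Vcam1, an adhesion molecule, was at 437 ± 69.4 CPM (SD, n = 3) in uIRI against 14.7 ± 0.759 (n = 2) in sham, a log2 change of 4.89 ± 0.31 (edgeR adjusted p = 2.77e-05). Vcam1 is also 1 of the 6 injured tubule markers, so its rise enters both lists. Bcl2a1b was at 4.64 ± 0.33 and the cytokine Il1b at 4.07 ± 0.35, both higher. The lower genes were Sod2, a mitochondrial enzyme (-2.27 ± 0.21), and Plau (-1.01 ± 0.25), which did not pass with library size alone (-0.35) or without sham 1. In uIRI+MSC against uIRI, 0 genes of these 3 lists passed in edgeR, with unadjusted p under 0.05 in 2 of 7, 6 of 38 and 8 of 24, against 20.6% of all genes. DESeq2 called 6 genes over the 3 lists and 8.23% of all genes.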

How the data were processed

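For each gene and each of 8 libraries the deposited table holds 2 values. The first is the authors' raw read count per gene, per the file headers; the other is FPKM, which per the file headers the authors scaled by gene length and depth. The submitters' processing notes name GRCm38, Bowtie2 2.2.6, HISAT2 2.0.4, StringTie 1.3.3b and edgeR 3.2.0 without their roles; the counting program, its strand setting and its handling of shared reads were not given in the sources used here.

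Counts were fitted in edgeR 4.0.16 under R 4.3.3 (filterByExpr with a minimum count of 10, TMM, quasi-likelihood F test with legacy=TRUE, 3 groups, 5 residual degrees of freedom), with Benjamini-Hochberg adjustment over the 16576 tested genes. The fit was run on simulated data with equal numbers of genes raised and lowered and no shift in scale. That run therefore does not bear on the choice of scale. SE is the size of the log2 change over the square root of F. For a gene at 0 in a group, 3 counts over that group gave the bound. Ratios with 1 to 3 counts have exact 95% intervals that cover counting error only. Depth gave each tested gene its counting precision, but libraries of a group differed by 18.7 to 72.9 times the variance of counting, so spread between libraries set the error of abundant genes. Values of every library were given for members called in uIRI against sham, or in uIRI+MSC against uIRI, whose larger mean FPKM was at least 1. Of the pathway lists, up to 4 genes with the smallest p were named by rule. The genes called lower in the pathway lists, and Tradd, Ripk1 and Casp8, were chosen after their values were seen, and of the marker lists mainly summed levels are given. Members and lists were chosen with earlier results of these data known. Gene spans are those of the deposited table; all 42 identifiers were found in GENCODE M21. Alternatives were DESeq2 1.42.0, limma-voom (limma 3.58.1), other scalings and filters, only the 2 groups compared, a replicate block, and leaving out each library.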

Additional observations from a re-analysis of the deposited data

How the results depend on the processing

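In uIRI against sham, the number of members called ran from 19 (without sham 1) to 33 (library size alone) around the 27 reported, and DESeq2 gave 27; over all genes the same settings gave 6386, 11032 and 9361 around 9044. In uIRI+MSC against uIRI, DESeq2 called 7 members and 1364 genes where edgeR called 0, and leaving out 1 library at a time gave 0 to 8 genes and 0 members. For the other pathway genes, whose alternatives were chosen after seeing the data, DESeq2 called 6 there where edgeR called 0, and in uIRI against sham 41 to 58 were called around the 48 reported. In uIRI+MSC against sham, leaving out 1 library gave 14 to 23 members and 3938 to 6914 genes, the lowest without sham 1, with the lone sham library assumed to vary like the other groups. Library size alone reversed Ltbr, to 0.56 in uIRI and 0.50 in uIRI+MSC against sham (adjusted p = 0.0127). It moved the call split from 26 higher and 1 lower to 33 and 0 for the members, and from 4683 and 4361 to 9041 and 1991 for all genes, in uIRI against sham; in uIRI+MSC against sham the split was 28 and 0 for the members and 7398 and 1353 for all genes. With the replicate block the members called were 26, 0 and 23 and the genes 7959, 0 and 5753 in the 3 comparisons. They also included 44, 0 and 42 other pathway genes. The block pairs libraries by number only: deviations of same-numbered libraries correlated at -0.209 to 0.111 over 7 pairs, other pairs at -0.201 to 0.212. Over the members and alternatives, 1651 log2 changes kept their direction and side of the threshold or changed sign with no call on either side, 46 lost and 31 gained the call, and 2 reversed; the cause was not tested. With 2 sham libraries, members near 1 CPM rest on few sham counts.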
